A study of Mus musculus with 6 samples.

Results

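The collagen chain genes were followed in RNA of primary hepatic stellate cells of mice. A member was any gene of the deposited count table whose symbol reads Col, a number, the letter a and a number, with nothing after it. This gave 42 chains among 22905 genes, of which 29 passed the low-count filter and were tested, among 14439 genes in all. The mice of both groups are labelled BucheKI/KI-Hep, and both groups had CCL4 (carbon tetrachloride, which injures hepatocytes and scars the liver when given repeatedly). The groups are named PBS and DOX, with 3 libraries each, and the study concerns butyrylcholinesterase overexpressed by hepatocytes. The comparison of DOX with PBS asks how collagen transcripts of the isolated cells stood under that change. All libraries share the genotype and CCL4, so what DOX does by itself and what the introduced gene does cannot be told apart. The labels give neither age nor sex, do not name the promoter that drives the gene, and do not say that replicates came from separate animals, so the p-values measure the spread between these libraries, which may be technical.

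Collagens are secreted or membrane-bound proteins whose chains wind into a helix built on a repeated glycine triplet. Fibrillar collagens (types I, III and V) form the scar fibres of a fibrotic liver, type IV forms the sheet of basement membranes, and type VI forms beaded filaments at the cell surface. FACIT collagens (types XII, XIV and XVI among them) sit on the surface of fibrils, multiplexins (types XV and XVIII) belong to basement membrane zones, and types XIII and XXIII span the cell membrane. Activated stellate cells are a main source of fibrillar collagen in injured liver, while sinusoidal endothelial cells also make type IV chains.

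The repeat that makes these genes collagens can be read in their coding sequence. In the longest complete coding transcript of each chain (GENCODE M21, GRCm38), a run was counted where glycine codons (GGN) opened at least 5 consecutive groups of 3 codons. The longest run was between 216 and 344 such triplets in the 9 tested fibrillar chains, and those chains held 2 or 3 runs each. The 4 tested type IV chains had 22 to 25 shorter runs, the longest being 40 to 66 triplets, so their helix is often interrupted. In Col12a1 only 8.12% of codons lay in runs, against 73.3% in Col1a1. Fibrillar genes were also cut into coding exons of 54 bases, or 6 triplets, in 41.2% to 55.0% of cases, against 2.13% to 5.66% in type IV chains. Other classes overlapped on these measures. Of the 5 tested FACIT chains, Col9a3 had 43.75% of exons at 54 bases, within the fibrillar range, and the others had 6.15% to 17.4%. The first such exon that begins and ends between triplets is shown for the chains on which the results turn, 5′ to 3′ on the coding strand, with the opening glycine codon of each triplet in capitals. Col1a1, Col1a2 and Col3a1 are shown because all were highest in the same library, Col4a1 as the most abundant chain, Col6a3 because it departed from its partner chains, and Col12a1 and Col23a1 because their groups did not overlap. The exons lie at chr11:94939904-94939957 (plus strand, exon 8 of Col1a1), chr6:4515481-4515534 (plus, exon 8 of Col1a2), chr1:45325360-45325413 (plus, exon 6 of Col3a1), chr8:11245211-11245264 (minus, exon 7 of Col4a1), chr1:90795915-90795968 (minus, exon 16 of Col6a3), chr9:79614349-79614402 (minus, exon 55 of Col12a1) and chr11:51569461-51569514 (plus, exon 17 of Col23a1).
Col1a1: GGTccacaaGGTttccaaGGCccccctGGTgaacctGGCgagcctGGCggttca
Col1a2: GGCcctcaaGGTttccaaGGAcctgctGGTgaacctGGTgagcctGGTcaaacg
Col3a1: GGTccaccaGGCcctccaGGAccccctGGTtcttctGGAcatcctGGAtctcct
Col4a1: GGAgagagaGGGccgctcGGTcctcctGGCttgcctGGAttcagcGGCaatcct
Col6a3: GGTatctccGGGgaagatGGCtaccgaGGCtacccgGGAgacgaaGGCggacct
Col12a1: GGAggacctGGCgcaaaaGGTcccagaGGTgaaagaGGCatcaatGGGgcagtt
Col23a1: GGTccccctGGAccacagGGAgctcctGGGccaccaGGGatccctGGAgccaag
All these exons open each triplet with a glycine codon, whether the chain forms fibrils or not.

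Total counts were between 36220282 and 37707364 per library, so that 3 reads, the most that a count of 0 allows, were worth 0.0758 to 0.0878 CPM (CPM, the count scaled to the TMM-adjusted library size; the limit covers counting error only). The isolated material held RNA of several cell types. Summed over 12 stellate markers, libraries had 263 to 614 CPM with PBS against 329 to 525 CPM with DOX. The sums were 5182 to 6422 CPM with PBS against 4613 to 5849 CPM with DOX for 10 endothelial markers, and 3881 to 5811 CPM with PBS against 6846 to 12386 CPM with DOX for 11 macrophage markers. The 8 hepatocyte markers summed to 273 to 573 CPM with PBS against 451 to 4033 CPM with DOX, and no listed marker in the table was at 0 in every library. The 7 myofibroblast markers summed to 858, 514 and 597 CPM over PBS libraries and 631, 751 and 698 CPM over DOX libraries. None was called by edgeR, and 5 had log2 fold changes below 0 and 2 above. DESeq2 called Acta2 (0.456-fold, adjusted p = 0.00724) and Tagln (0.351-fold, adjusted p = 0.00683) lower, beside 6.36% of genes called lower by that tool. The 2 above 0 were the most abundant of the list, Spp1 and Timp1. Their log2 fold changes were 0.264 and 0.838 (adjusted p in edgeR = 0.634 and 0.290). The 7 portal fibroblast and mesothelial markers summed to 91.3, 187 and 212 CPM over PBS libraries and 158, 240 and 239 CPM over DOX libraries. Of these, 6 had log2 fold changes above 0 and 1 below, and Thy1 alone was called, as higher (3.06-fold, adjusted p in edgeR = 0.0240). The most abundant of them, Fbln2 and Msln, were at 1.07-fold and 1.70-fold (adjusted p in edgeR = 0.924 and 0.271). Called higher by edgeR were also 2 of 11 macrophage, 1 of 5 cholangiocyte, 1 of 4 tested lymphocyte and 2 of 2 tested neutrophil markers. Among all genes tested 4.38% were called higher. The part of any of these cells in the collagen values was not tested. The stellate markers Lrat and Des averaged 2.00 and 12.7 CPM in PBS. All collagen values are therefore those of the whole RNA of a library, in which fewer cells of a type and less RNA per cell cannot be told apart.

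Type IV collagen led the collagen transcripts, and the fibrillar chains came after it. Compared per length, as FPKM, Col4a1 had 243, 219 and 312 in PBS replicates 1, 2 and 3, against 164, 225 and 168 in DOX replicates 1, 2 and 3. Col4a2 had 160, 170 and 216 FPKM in PBS and 116, 165 and 109 FPKM in DOX. Together these chains made up 64.1% to 76.6% of all collagen FPKM once the trace levels of the other type IV chains are added. The next chains by mean FPKM over the 6 libraries were Col3a1 (41.0), Col1a2 (33.5), Col1a1 (24.4), Col6a1 (9.75 to 22.9 by library), Col5a2 (12.2) and Col14a1 (11.0). The spread between libraries exceeded the steps between several of these neighbours. Col3a1 and Col1a2 overlapped in every group, as did Col6a1, Col5a2 and Col14a1. Chains with a mean between 1 and 10 FPKM were Col5a1, Col6a2, Col5a3, Col6a3, Col13a1, Col15a1, Col16a1, Col6a5 and Col18a1. All 42 chains together held 0.142%, 0.144% and 0.229% of the FPKM total in PBS replicates 1, 2 and 3, against 0.115%, 0.154% and 0.105% in DOX.

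**Figure D1:**
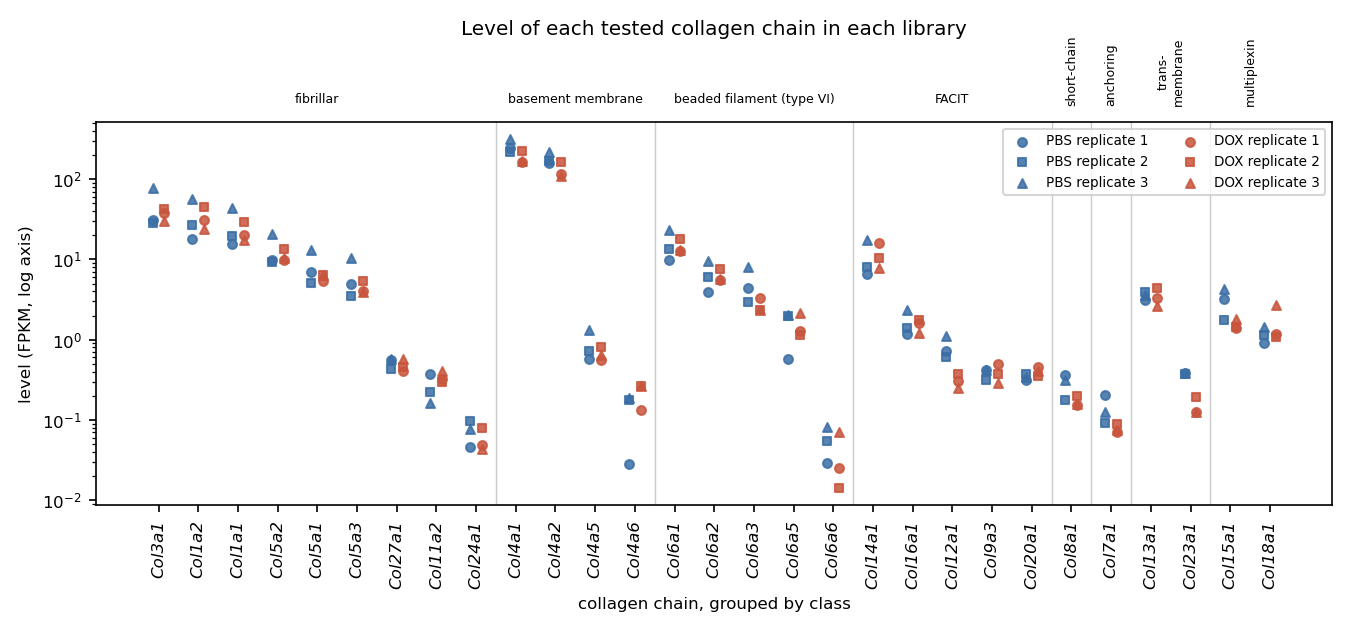
Level of the 29 tested collagen chains in each library, in FPKM on a log axis, grouped by class and ordered by mean level within a class; blue marks PBS and red DOX, and the symbol gives the replicate. Col4a1 and Col4a2 stand above all other chains in each library, and the blue triangles of PBS replicate 3 top many of the fibrillar and type VI chains.

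The other 13 chains were at trace levels and were not tested. Over the 6 libraries summed, Col17a1 and Col4a4 had 38 reads each, Col6a4 25, Col4a3 and Col28a1 23 each, Col25a1 20, Col8a2 19, Col2a1 12, Col11a1 11, Col9a2 and Col26a1 7 each, Col19a1 3 and Col22a1 2. Of the chains known from cartilage, Col2a1, Col9a2 and Col11a1 were at these trace levels, while Col11a2 (510 reads) and Col9a3 (264 reads) were tested. Of the 38 Col4a4 reads, 20 came from DOX replicate 3. Col17a1, a hemidesmosome chain of epithelia, had 3, 6 and 0 reads in PBS and 8, 13 and 8 in DOX, and Col8a2 had 3, 3 and 10 in PBS and 1 in each DOX library.

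Of the 29 tested chains, 1 passed an adjusted p of 0.05 in DOX against PBS, Col12a1, which was lower, and 0 were higher. Among all genes tested 6.41% passed, 4.38% as higher and 2.04% as lower, so the count of chains is no larger than the background. By library totals alone 611 genes were called higher and 730 lower, against 632 and 294 with TMM factors. At an unadjusted p under 0.05 there were 3 chains, Col12a1, Col23a1 and Col15a1, against 28.7% of all genes. The groups did not overlap for 3 chains, Col12a1, Col23a1 and Col20a1, against 34.6% of all genes. Col12a1 and Col23a1 were the chains lower in every DOX library, which 17.7% of all genes were, and Col20a1 the chain higher in all of them, as were 16.9%. DESeq2 called 3 chains, all lower (Col12a1, Col23a1 and Col15a1), beside 6.36% of genes called lower by that tool. Of the 29 chains, 13 had a positive and 16 a negative log2 fold change, with a median of -0.10 beside -0.01 for all genes tested. Without PBS replicate 3 the split was 19 positive and 10 negative, with a median of 0.19, and without PBS replicate 1 it was 7 and 22, with a median of -0.35. By library totals alone the split was 6 positive and 23 negative, as that scaling moved the median of all genes to -0.14 and that of the chains to -0.24.

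**Figure D2:**
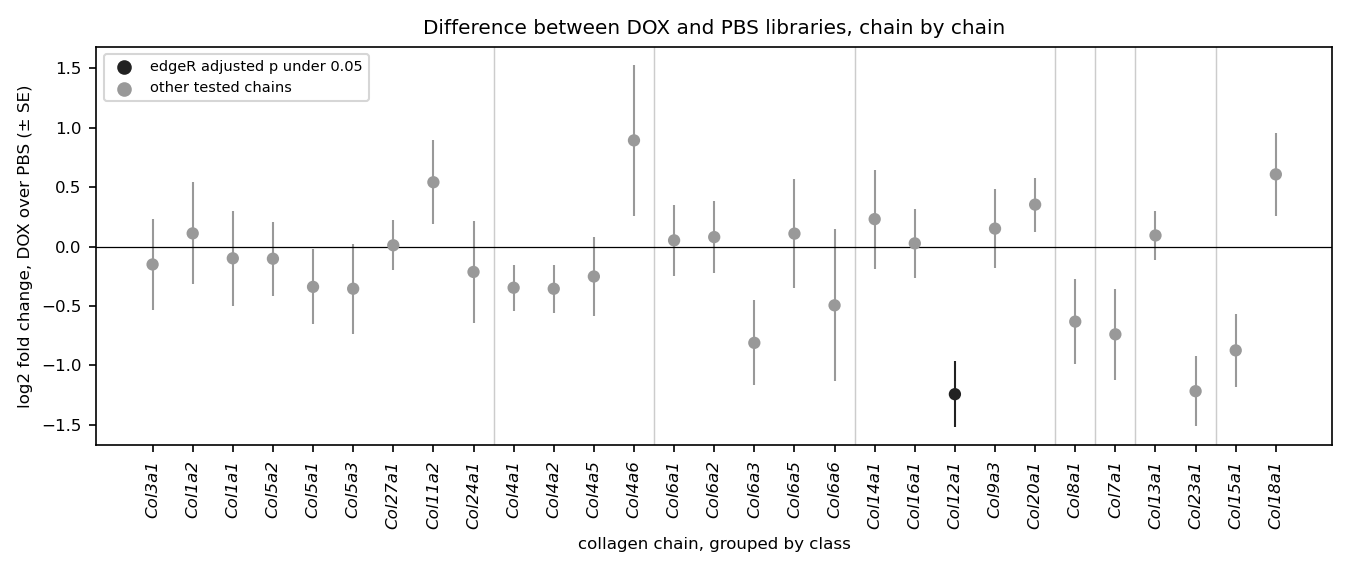
Log2 fold change of DOX over PBS for each tested chain, with its standard error as a bar (edgeR, 3 libraries per group), grouped by class. Col12a1, drawn dark, is the chain past the threshold at -1.24, and the fibrillar chains lie between -0.36 and 0.54.

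Col12a1 encodes the FACIT collagen XII, which decorates fibrils and is known from tissues under tension. The gene lies on chromosome 9 from 79598987 to 79721141 (RefSeq, GRCm38.p6). Its levels were 9.89, 8.21 and 14.8 CPM in PBS replicates 1, 2 and 3, against 4.74, 5.63 and 3.52 CPM with DOX replicates 1, 2 and 3. All DOX libraries were below all PBS libraries. The mean was 11.0 ± 3.42 CPM with PBS against 4.63 ± 1.06 CPM with DOX (SD, n = 3 each), a 2.37-fold lower level (log2 fold change -1.24, SE 0.28, adjusted p in edgeR = 0.0480). DESeq2 also called it (adjusted p = 0.000791), and limma-voom did not (adjusted p = 0.0573). Nor did it pass in edgeR with RLE factors (adjusted p = 0.0510) or in limma on log2(FPKM + 1) (adjusted p = 0.0573) and log2(FPKM + 0.1) (adjusted p = 0.0503). The edgeR call did not hold when any single library was left out. The adjusted p in edgeR was then 0.0700, 0.0838 and 0.136 without PBS replicates 1, 2 and 3 and 0.141, 0.0681 and 0.0791 without DOX replicates 1, 2 and 3, with log2 fold changes between -1.42 and -0.97. Calls over all genes numbered 0 without PBS replicate 2 or 3. With the replicate number as a block it was 0.0947.

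The other 4 tested FACIT chains were not called, and had log2 fold changes above 0 in edgeR with TMM factors. Col14a1, which encodes collagen XIV of mature fibrils, had 45.6, 54.1 and 117 CPM with PBS against 122, 78.1 and 54.5 CPM with DOX. PBS replicate 3 and DOX replicate 1 were high and the groups overlapped (log2 fold change 0.23, SE 0.42, adjusted p in edgeR = 0.756). Col16a1 had 7.29, 8.40 and 14.2 CPM with PBS against 11.1, 11.8 and 7.64 CPM with DOX (log2 fold change 0.03, adjusted p in edgeR = 0.963; -0.11 by library totals alone). Within a library, the FPKM of Col14a1 stood at 9.16, 13.1 and 15.7 times that of Col12a1 in PBS and at 51.1, 27.5 and 30.8 times in DOX. For Col16a1 the same ratio was 1.64, 2.27 and 2.13 in PBS and 5.19, 4.64 and 4.81 in DOX. Neither ratio overlapped between groups, but both divide by Col12a1, which alone did not overlap, so they are not separate evidence. Col20a1 had 1.96, 2.28 and 2.07 CPM with PBS against 3.13, 2.39 and 2.54 CPM with DOX, without overlap but with an adjusted p in edgeR of 0.350 (log2 fold change 0.35, SE 0.23). Col9a3 was at 0.873 to 1.67 CPM over the 6 libraries (log2 fold change 0.15, adjusted p in edgeR = 0.805), and 6.07% of its exon bases are shared with Tcfl5.

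Col23a1 and Col13a1 encode transmembrane collagens. Col23a1 was the steadiest chain within PBS, at 2.23, 2.12 and 2.17 CPM, against 0.819, 1.24 and 0.737 CPM with DOX. No DOX library reached the PBS level. The means were 2.17 ± 0.0539 and 0.932 ± 0.269 CPM (SD, n = 3 each), and the raw counts behind them were 84, 81 and 86 in PBS and 28, 44 and 27 in DOX. The log2 fold change was -1.22 (SE 0.29), with an adjusted p in edgeR of 0.0546, just short of the threshold. Limma-voom and DESeq2 called it (adjusted p = 0.0481 and 0.00312), among 5.97% and 17.6% of genes called by those tools. It was the chain called, in place of Col12a1, by limma-voom and by limma on log2(FPKM + 1) and log2(FPKM + 0.1) (adjusted p = 0.0357 and 0.0372 on FPKM). With each library left out the log2 fold change lay between -1.48 and -1.07, and the adjusted p in edgeR between 0.0598 and 0.163. Col13a1, a chain of cell adhesion sites, was at 19.6, 23.8 and 22.1 CPM with PBS against 23.0, 29.8 and 17.0 CPM with DOX. Its groups overlapped (log2 fold change 0.09, SE 0.20, adjusted p in edgeR = 0.802; -0.04 by library totals alone). The FPKM ratio of Col23a1 to Col13a1 was 0.122, 0.0961 and 0.106 in PBS and 0.0383, 0.0448 and 0.0466 in DOX. Every DOX library was below every PBS library, as for Col23a1 alone.

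Among the multiplexins, Col15a1 and Col18a1 had fold changes of opposite sign. Col15a1 had 16.7, 8.76 and 21.6 CPM with PBS against 8.14, 8.08 and 9.47 CPM with DOX. PBS replicate 2 lay within the DOX range, while the other PBS libraries were above it. The log2 fold change was -0.87 (SE 0.31, adjusted p in edgeR = 0.120), and DESeq2 called it (adjusted p = 0.0448). Without PBS replicate 3 it was -0.57, and without PBS replicate 2 it was -1.16. Col18a1, whose product is cut to release endostatin, had 6.81, 8.37 and 10.3 CPM with PBS against 9.66, 8.79 and 20.4 CPM with DOX. DOX replicate 3 stood alone as the highest library, and without it the log2 fold change of 0.61 (SE 0.35, adjusted p in edgeR = 0.294) was 0.12. That library also held 4033 CPM of summed hepatocyte markers, against 451 to 1114 CPM in the other DOX libraries, and the part of hepatocyte RNA in the Col18a1 value was not tested. The FPKM ratio of Col15a1 to Col18a1 was 3.52, 1.505 and 3.01 in PBS and 1.21, 1.32 and 0.666 in DOX.

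None of the 9 tested fibrillar chains was called, and their libraries overlapped in every case. Col1a1, the main chain of type I collagen, had 90.4, 109 and 248 CPM with PBS against 130, 186 and 102 CPM with DOX. Col1a2, its partner, had 92.2, 133 and 281 CPM with PBS against 176, 248 and 123 CPM with DOX. Col3a1, the single chain of type III collagen, had 168, 148 and 403 CPM with PBS against 230, 249 and 168 CPM with DOX. In all 3 genes PBS replicate 3 was the highest library, PBS replicate 1 lay below every DOX library, and PBS replicate 2 lay low in or below the DOX range. The log2 fold changes were -0.10, 0.11 and -0.15 (SE 0.40, 0.43 and 0.38), with adjusted p in edgeR of 0.897, 0.893 and 0.831. Single libraries moved all 3 values. Without PBS replicate 3 they were 0.48, 0.70 and 0.45, and the adjusted p in edgeR were 0.334, 0.265 and 0.242. Without PBS replicate 1 they were -0.36, -0.19 and -0.35, and without DOX replicate 3 that of Col1a1 was 0.080. For Col1a2 the value was also below 0 without PBS replicate 2 (-0.038), without DOX replicate 2 (-0.18) and by library totals alone (-0.033).

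Type V collagen, which regulates the start and width of type I fibrils, also had its highest values in PBS replicate 3. Col5a1 had 58.3, 40.6 and 105 CPM with PBS against 50.0, 57.1 and 54.2 CPM with DOX. Col5a2 had 63.5, 58.1 and 128 CPM with PBS against 69.8, 94.9 and 67.8 CPM with DOX, and Col5a3 had 29.7, 20.2 and 59.7 CPM with PBS against 26.6, 35.3 and 23.8 CPM with DOX. PBS replicate 3 was the highest library and PBS replicate 2 the lowest in each. The log2 fold changes were -0.34, -0.10 and -0.36 with adjusted p in edgeR of 0.517, 0.859 and 0.578, and 0.12, 0.35 and 0.19 without PBS replicate 3. The remaining fibrillar chains were low. Col27a1 was at 3.51 to 4.91 CPM, the smallest ratio of highest to lowest library among tested chains, 1.40 (log2 fold change 0.01, adjusted p in edgeR = 0.981). Col11a2 was at 1.19 to 2.84 CPM with PBS against 2.42 to 3.11 CPM with DOX (log2 fold change 0.54, adjusted p in edgeR = 0.356), with its lowest value in PBS replicate 3, opposite to the abundant fibrillar chains. Col24a1 was at 0.327 to 0.706 CPM (log2 fold change -0.21, adjusted p in edgeR = 0.783).

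**Figure D3:**
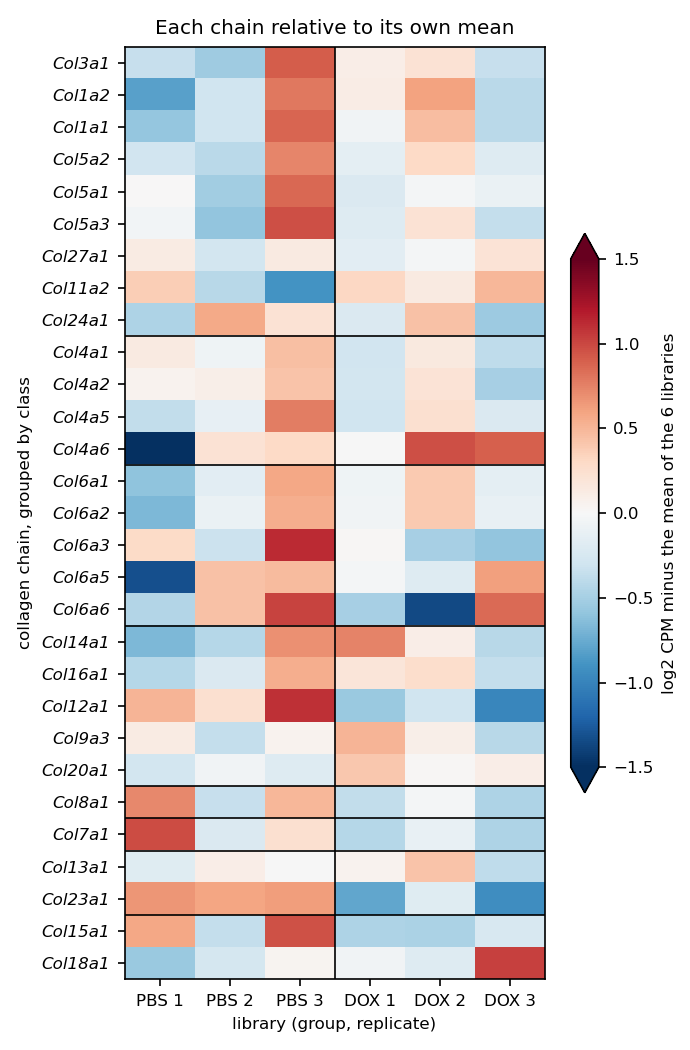
Level of each tested chain in each library relative to the mean of the 6 libraries for that chain (log2 CPM, red above and blue below the mean; the scale ends at 1.5 either way), grouped by class. PBS replicate 3 is red for types I, III and V, while Col12a1 and Col23a1 are red in all PBS libraries and blue in all DOX libraries.

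The preference for 1 library went beyond the fibrillar class. PBS replicate 3 was the highest library for 16 of 29 tested chains (55.2%), against 16.1% of all genes tested. PBS replicate 1 was the lowest for 11 chains (37.9%) and DOX replicate 3 for 10 (34.5%), against 17.1% and 15.9% of all genes tested. Summed over the class, fibrillar FPKM were 87.2, 92.8 and 222 in PBS and 109, 142 and 93.3 in DOX, or 134 ± 76.4 and 115 ± 25.0 (SD, n = 3 each). The sum of the stellate markers stood in a similar order, at 317, 263 and 614 CPM in PBS and 525, 474 and 329 CPM in DOX. Ecm1, the most abundant of them, was at 109, 129 and 261 CPM with PBS against 259, 253 and 136 CPM with DOX. Reln, Hgf and Colec11 were, like Ecm1, highest in PBS replicate 3 and next in DOX replicate 1. Other stellate markers were ordered differently. Pdgfrb had 47.3, 19.3 and 59.0 CPM with PBS against 23.1, 23.9 and 27.1 CPM with DOX. Hand2 had 2.89, 1.36 and 3.64 CPM with PBS against 1.61, 1.55 and 1.75 CPM with DOX. In both, PBS replicate 1 was above every DOX library. The part of stellate cell content in the fibrillar values was not tested. The groups differed in the fibrillar sum by less than the spread between PBS libraries.

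**Figure D4:**
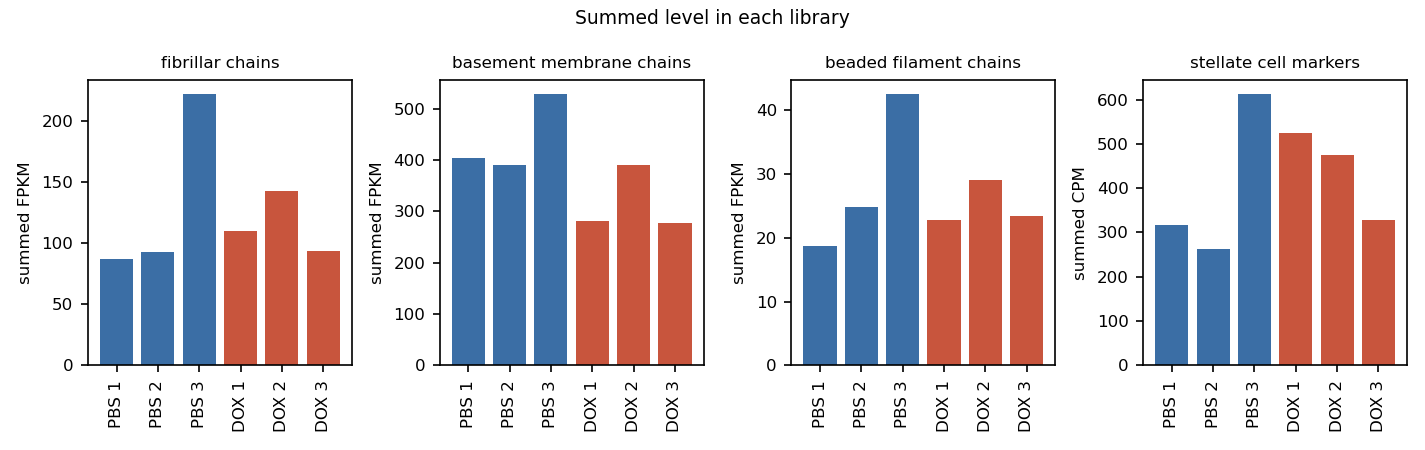
Summed level in each library (bars from 0; blue PBS, red DOX) of the fibrillar, basement membrane and beaded filament chains in FPKM and of 12 stellate markers in CPM. PBS replicate 3 is the tallest bar in all 4 panels, and the fibrillar panel and the stellate marker panel share their low PBS replicates 1 and 2.

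Type IV collagen is the network of basement membranes, and in liver its Col4a1 and Col4a2 chains join as heterotrimers. Col4a1 had 1575, 1373 and 1953 CPM with PBS against 1173, 1579.9 and 1100.1 CPM with DOX. Col4a2 had 1013, 1039.8 and 1319 CPM with PBS against 813, 1127 and 695 CPM with DOX. In both genes DOX replicate 2 lay within the PBS range and the other DOX libraries were below it. The log2 fold changes were -0.35 (SE 0.19) and -0.36 (SE 0.20), with adjusted p in edgeR of 0.281 and 0.294, and with each library left out they were -0.52 to -0.20 and -0.58 to -0.21. Endothelial markers summed to 5182, 6303 and 6422 CPM with PBS against 5849, 5629 and 4613 CPM with DOX, and their part in the type IV values was not tested. The genes lie head to head on opposite strands of chromosome 8, where the RefSeq transcripts overlap by 22 bases from 11312805 to 11312826 (GRCm38.p6). Strand use in counting is not given in the sources used here, but 0.982% or less of the exon bases of either gene are shared with another gene. Col4a5 had 3.74, 4.45 and 8.23 CPM with PBS against 3.92, 5.72 and 4.15 CPM with DOX (log2 fold change -0.25, adjusted p in edgeR = 0.661; 0.16 without PBS replicate 3). Col4a6 was at 0.186, 1.12 and 1.19 CPM with PBS against 0.966, 1.89 and 1.80 CPM with DOX (log2 fold change 0.89, SE 0.63, adjusted p in edgeR = 0.396).

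Type VI collagen is assembled from Col6a1, Col6a2 and one further chain, usually Col6a3, and Col6a3 ordered the libraries differently from its partners. Col6a1 had 37.96, 51.4 and 86.2 CPM with PBS against 54.8, 75.5 and 51.8 CPM with DOX, and Col6a2 had 23.3, 34.8 and 54.4 CPM with PBS against 35.9, 48.7 and 34.3 CPM with DOX. Both had their highest value in PBS replicate 3 and their next in DOX replicate 2. The log2 fold changes were 0.05 and 0.08 (adjusted p in edgeR = 0.931 and 0.890; -0.08 and -0.06 by library totals alone). Col6a3 had 46.3, 30.5 and 82.4 CPM with PBS against 38.7, 26.9 and 25.2 CPM with DOX. Here DOX replicate 2 was among the low libraries, and the log2 fold change was -0.81 (SE 0.36, adjusted p in edgeR = 0.187; -0.35 without PBS replicate 3). Col6a5, an alternative to Col6a3, had 5.33, 17.9 and 18.4 CPM with PBS against 13.0, 11.6 and 20.3 CPM with DOX (log2 fold change 0.11, adjusted p in edgeR = 0.903; -0.01 by library totals alone). Col6a6 was at 0.113 to 0.581 CPM (log2 fold change -0.50, adjusted p in edgeR = 0.652; -1.31 without DOX replicate 3 and -0.11 without PBS replicate 3).

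Ratios between partner chains, taken within a library, were steadier than the chains themselves for types I and IV. Col1a1 CPM spanned 2.74-fold over the 6 libraries, while the FPKM ratio of Col1a1 to Col1a2 spanned 1.32-fold, at 0.864, 0.727 and 0.776 in PBS and 0.653, 0.661 and 0.729 in DOX. The ratio of Col4a1 to Col4a2 was 1.52, 1.29 and 1.44 in PBS and 1.41, 1.37 and 1.54 in DOX. Col6a1 to Col6a2 was steadiest, at 2.23 to 2.46 in PBS and 2.28 to 2.35 in DOX. Col6a3 to Col6a1 was not steady, at 0.446, 0.217 and 0.350 in PBS and 0.258, 0.130 and 0.178 in DOX, and the groups overlapped. The ratio of Col12a1 to Col1a1 did not overlap between groups, at 0.0459, 0.0315 and 0.0250 in PBS and 0.0153, 0.0127 and 0.0145 in DOX. Col12a1 alone did not overlap either. Type I collagen holds more Col1a1 than Col1a2 chains, and Col1a2 had the higher FPKM in every library. These ratios were chosen with earlier results known and are given without a test.

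**Figure D5:**
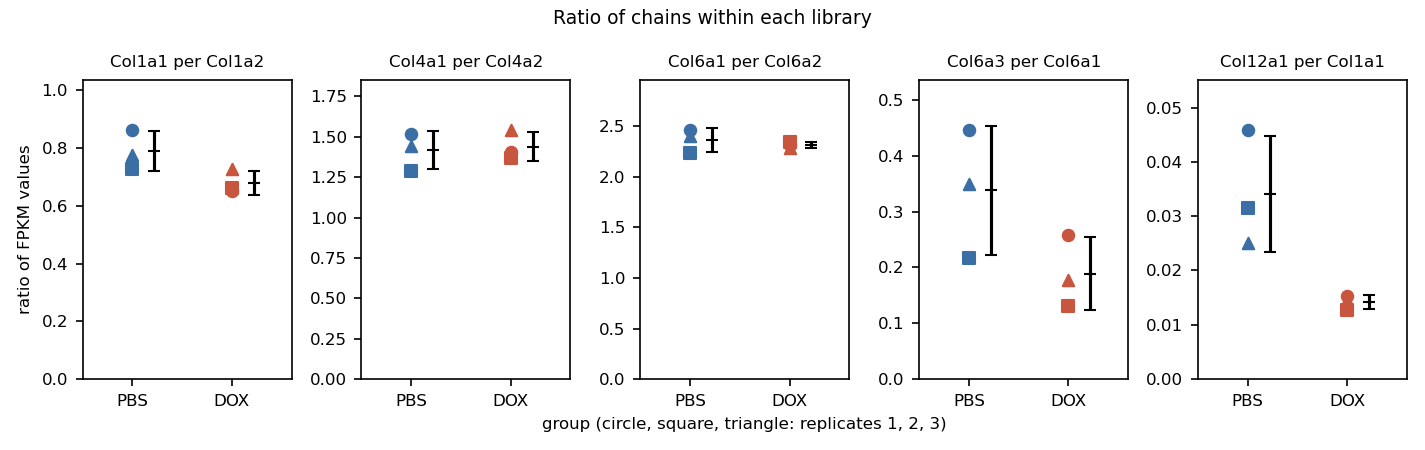
Ratio of FPKM values of chains within each library for 5 pairs, with axes from 0; points are libraries (blue PBS, red DOX) and black bars the mean ± SD of 3 libraries. The first 3 ratios are nearly level across libraries, Col6a3 per Col6a1 varies within both groups, and Col12a1 per Col1a1 separates PBS from DOX.

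Col7a1, the anchoring fibril chain, and Col8a1, a network chain of vessel walls, were low. Col7a1 had 1.86, 0.811 and 1.11 CPM with PBS against 0.702, 0.873 and 0.682 CPM with DOX, and Col8a1 had 1.80, 0.863 and 1.54 CPM with PBS against 0.849, 1.07 and 0.791 CPM with DOX. PBS replicate 1 was the highest library in both and the groups overlapped. The log2 fold changes were -0.74 and -0.63 with adjusted p in edgeR of 0.250 and 0.289, and -0.35 and -0.41 without PBS replicate 1.

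The enzymes and chaperones that make collagen gave 1 call among 36 tested genes of 38 listed, as lower, against 2.04% of all genes called lower, with a median log2 fold change of -0.04 beside -0.01 for all genes. It was Pxdn, which encodes peroxidasin, the enzyme that crosslinks type IV collagen. Pxdn fell from 206, 183 and 185 CPM in PBS to 86.2, 113 and 124 CPM with DOX, without overlap (log2 fold change -0.83, SE 0.14, adjusted p in edgeR = 0.0291). The call was lost without PBS replicate 2 or 3 or DOX replicate 1 or 2 (adjusted p in edgeR between 0.0578 and 0.0952, log2 fold change between -0.86 and -0.69). Plod1, a lysyl hydroxylase of procollagen, had 113, 144 and 119 CPM with PBS against 260, 175 and 176 CPM with DOX (adjusted p in edgeR = 0.0657, and in DESeq2 0.00786). Pcolce2, an enhancer of procollagen cleavage, had log2 fold change 0.99 and Ppib, a prolyl isomerase, 0.32 (adjusted p in edgeR = 0.106 and 0.149), and DESeq2 called Pcolce2 (adjusted p = 0.0226). Serpinh1, the collagen chaperone HSP47, named outside the rule, had 297 CPM with PBS against 264 CPM with DOX (adjusted p in edgeR = 0.691).

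Of 23 receptors and breakdown enzymes of collagen, 20 were tested, 1 was called as higher and 0 as lower, against 4.38% and 2.04% of all genes, with a median log2 fold change of 0.05. The call was the collagenase gene Mmp13, at 371, 219 and 386 CPM with PBS against 1052, 766 and 822 CPM with DOX (log2 fold change 1.44, adjusted p in edgeR = 0.0281). It was lost without PBS replicate 2 or 3 or DOX replicate 1 (adjusted p in edgeR = 0.0694, 0.0868 and 0.0891). Mmp14, a membrane collagenase, had 860 ± 65.7 CPM with PBS against 1209 ± 160 CPM with DOX (SD, n = 3 each; adjusted p in edgeR = 0.0741). Prep, a prolyl peptidase, had 96.3 and 75.7 CPM (adjusted p in edgeR = 0.0579), and Mmp9, a gelatinase of myeloid cells, 0.616 and 4.13 CPM (adjusted p in edgeR = 0.0646). DESeq2 called 8 genes of this list, 4 higher and 4 lower, and 17.6% of all genes. Higher were Mmp13, Mmp9, Mmp14 and Lair1 (adjusted p in DESeq2 = 1.18e-06, 0.000624, 0.0119 and 0.0149). Lower were Ctsl, Adgrg1, Mmp2 and Prep (adjusted p in DESeq2 = 0.000394, 0.0125, 0.0151 and 0.0157). Ctsl, the most abundant of the list, had 4116 CPM with PBS against 3080 CPM with DOX. Without the low-count filter edgeR called Mmp9 (adjusted p = 0.0444). Macrophage marker sums were higher in all DOX libraries than in any PBS library, and their part in the values of Mmp13, Mmp14 and Mmp9 was not tested.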

How the data were processed

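The authors deposited raw read counts for 22905 gene symbols and FPKM values for the same genes, 1 column per library. Each deposited FPKM value above 0 could be rebuilt from its count, the library total and 1 length per gene (100% of values, relative tolerance 0.0001). The submitters' processing notes name the builds GRCm38, mm10 and hg38 with no role. For the aligner, the counter and strand use, nothing is given in the sources used here. The labels' protocols name a SMARTER kit for library construction.

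Counts were tested with edgeR 4.0.16 (quasi-likelihood, two-sided, group as the only term, TMM factors, filterByExpr with minimum count 10 and minimum total 15), adjusted by Benjamini-Hochberg over 14439 genes, threshold 0.05. Alternatives used limma 3.58.1 and DESeq2 1.42.0, other scalings and filters, FPKM with pseudocounts of 1 and 0.1, a replicate block and each library left out. Depth was 36220282 to 37707364 counts per library. In simulated counts of these 14439 genes, edgeR found 60 of 100 genes changed by 1 log2 unit and 88 of 100 changed by 2, and 5.13% of its calls were false. The simulation drew each gene independently, with the spread typical of its level and no shift shared by genes of a library. These rates therefore need not hold for the collagen chains of these libraries. Within-group library pairs differed by a chi-square per degree of freedom of 38.6 to 82.1, more than counting error alone, so no library was a duplicate deposit of another.

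Members, classes and lists were chosen with earlier results of these data known. Values per library were to be given for chains called by edgeR or DESeq2, chains with a mean of at least 10 CPM and chains whose groups did not overlap, and are given for some lower chains too. From the list of collagen-making genes and that of receptors and breakdown enzymes, the 4 genes with the lowest p and any called gene were named. Lair1, Ctsl, Adgrg1 and Mmp2, called by DESeq2, were added after their values were seen. From the marker lists Ecm1 and Hgf (the 2 most abundant stellate markers), Spp1, Timp1, Fbln2 and Msln (the most abundant of their lists) are named. Also named are Lrat, Des, Reln, Colec11, Pdgfrb, Hand2, Acta2, Tagln and Thy1, which were chosen after their values were seen.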

Additional observations from a re-analysis of the deposited data

How the results depend on the processing

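The count of chains called was 1 and became 0 with RLE factors, 2 by library totals alone, 3 in DESeq2 and 0 with a replicate block, and 0 to 0 with single libraries left out. Same-numbered libraries deviated together by r of 0.09, -0.11 and 0.23, and differently numbered ones by r of -0.23 to 0.14. As deviations were taken from means of 3 libraries, these values cannot show or exclude pairing, and none is claimed. Making genes called (1) became 2 without the low-count filter, 3 in DESeq2 and 0 to 3 with libraries left out. Receptor and breakdown genes called (1) became 3 by library totals, 2 without the filter, 8 in DESeq2 and 0 to 3 with libraries left out. All genes called (926, of which 632 higher and 294 lower) became 2629 in DESeq2 and 0 to 1090 with libraries left out, being 0 without PBS replicate 2 or 3, and by library totals 611 were higher and 730 lower. Signs turned for Col1a1 (0.0048 in limma-voom, 0.022 with the block). By library totals they turned for Col1a2 (-0.033), Col6a1 (-0.083), Col6a2 (-0.055), Col6a5 (-0.014), Col13a1 (-0.042), Col16a1 (-0.11) and Col27a1 (-0.11). On log2(FPKM + 1) they turned for Col6a1 (-0.014), Col13a1 (-0.047), Col16a1 (-0.048) and Col27a1 (-0.037), and on log2(FPKM + 0.1) for Col6a1 (-0.011), Col13a1 (-0.063), Col16a1 (-0.061), Col9a3 (-0.0029) and Col27a1 (-0.093). With libraries left out, log2 fold changes spanned 0 for Col1a1 (-0.36 to 0.48), Col1a2 (-0.19 to 0.70), Col3a1 (-0.41 to 0.45), Col4a5 (-0.47 to 0.16), Col5a1 (-0.61 to 0.12), Col5a2 (-0.31 to 0.35), Col5a3 (-0.65 to 0.19), Col6a1 (-0.18 to 0.44), Col6a2 (-0.17 to 0.45), Col6a5 (-0.28 to 0.36), Col9a3 (-0.10 to 0.36), Col13a1 (-0.12 to 0.28), Col14a1 (-0.12 to 0.76), Col16a1 (-0.16 to 0.37), Col24a1 (-0.54 to 0.032) and Col27a1 (-0.11 to 0.093). The cause of these changes was not tested. Class sums and chain ratios stayed within 1 SD under each alternative run, the SD being that of log2 values between libraries of a group. That spread was wide, so a change of sign could pass as no change. The fibrillar sum averaged 134 FPKM with PBS against 115 FPKM with DOX. Yet PBS replicates 1 and 2 (87.2 and 92.8 FPKM) lay below every DOX library. The 13 untested chains, with at most 38 reads in all, allow no comparison at this depth.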
